A study of Mus musculus with 9 samples.

Results

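The 37 genes described here make or carry amino acids, or belong to the stress program driven by the transcription factor ATF4. They were taken as a list of gene names, with no threshold on their values, and fall into 7 roles, namely serine synthesis (3 genes), glycine and one-carbon metabolism (6), proline (3), asparagine, glutamine and aminotransferases (6), cysteine and glutathione (3), ATF4 and stress regulators (6) and transporters (10). All 37 had a row among the 55416 genes of the count table, and 36 were among the 14879 genes that passed the filter on low counts and were tested. RNA-Seq was carried out on 9 libraries of AdvSca1-SM cells, the Sca1-expressing adventitial progenitors that derive from smooth muscle, in 3 groups of 3. Sorting had started from arteries (aorta and carotid) of SM22α-Cre-YFP mice, pooled, in which the smooth muscle SM22α promoter drives the Cre that switches on the YFP label, and the cells were then subcultured. The mice were 8 weeks old. The Stem group received vehicle alone, the TGF-β group 5 ng/mL TGF-β1, and the Both group 5 ng/mL TGF-β1 with 50 μM PFI-3, an inhibitor directed at the bromodomain of Brg1, a chromatin remodeler. All cells carried 0.1% DMSO and were harvested at 72 h. The paper has the Stem cells in stem cell media and the stimulated cells in DMEM with 0.1% FBS after 24 h of growth arrest, whereas the label of every sample names the latter medium. In the comparison with Stem, the effects of medium and of TGF-β1 therefore cannot be told apart; Both and TGF-β differed in PFI-3.

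Cells that run short of an amino acid, or that carry unfolded protein, phosphorylate the translation factor eIF2α. General translation then falls while the Atf4 mRNA is translated better, and the ATF4 protein switches on genes for amino acid synthesis, amino acid uptake, tRNA charging and, at a later stage, its own negative regulators. Because ATF4 is set largely at translation, its mRNA is not a measure of its protein. Myofibroblasts, the matrix-secreting cells that TGF-β1 induces, need glycine and proline in quantity, since collagen is rich in both. The medium also matters for such genes. αMEM supplies alanine, asparagine, aspartate, glutamate and proline, which DMEM lacks, and both supply serine and glycine.

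ATF4 binds, as a dimer with C/EBP proteins, a composite site called the C/EBP-ATF response element. Its letters TGATGNAA were searched on either strand in the promoter windows of RefSeq (build GRCm38.p6), from 250 bases before to 50 after each transcription start. Windows were at hand for 31 of the 37 members, the others being Aldh1l2, Cth, Slc7a3, Slc7a5, Slc1a5 and Slc38a1. Of the 31, 8 held a match, and 4.511% of the 27025 genes with a window did. The members were listed in part as ATF4 targets, so a share above that of all genes can follow from the choice of the list. The 8 were Trib3, Chac1, Nupr1, Asns, Pycr1, Slc7a11, Slc1a4 and Got1, and each was more than 2-fold higher in TGF-β than in Stem. So were 26 of all 36 tested members, among them Mthfd2, Phgdh and Ddit3, whose windows held no match. Of the 8, the 6 with the largest change are shown, since they let the element be read beside the counts. The sequences run 5′ to 3′ on the strand of the gene, with the element in capitals, and an element that lies on the opposite strand appears as its reverse complement:
Trib3 (chr2:152344028-152344057, minus strand): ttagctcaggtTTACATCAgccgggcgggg
Chac1 (chr2:119351009-119351096, plus strand): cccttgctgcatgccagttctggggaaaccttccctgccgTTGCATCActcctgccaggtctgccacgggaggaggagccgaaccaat
Nupr1 (chr7:126625533-126625620, minus strand): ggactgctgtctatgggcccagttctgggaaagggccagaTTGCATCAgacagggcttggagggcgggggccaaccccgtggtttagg
Asns (chr6:7693210-7693272, minus strand): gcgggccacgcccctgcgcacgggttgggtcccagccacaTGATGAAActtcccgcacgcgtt
Pycr1 (chr11:120643804-120643891, minus strand): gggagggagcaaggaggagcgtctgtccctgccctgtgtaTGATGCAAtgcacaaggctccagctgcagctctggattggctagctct
Slc7a11 (chr3:50443614-50443719, minus strand): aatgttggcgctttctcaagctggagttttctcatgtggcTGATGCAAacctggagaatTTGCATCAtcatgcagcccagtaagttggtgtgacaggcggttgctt
Slc7a11 held 2 elements in opposite orientation, 66 and 47 bases before its start. Only in Trib3 among these 8 did the element begin after the start. The cAMP response element TGACGTCA, a palindrome that ATF and CREB proteins bind, was found in 0 of the 31 members with a window and in 2.031% of all genes. A match describes letters, and no binding was measured at these promoters here.

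**Figure D1:**
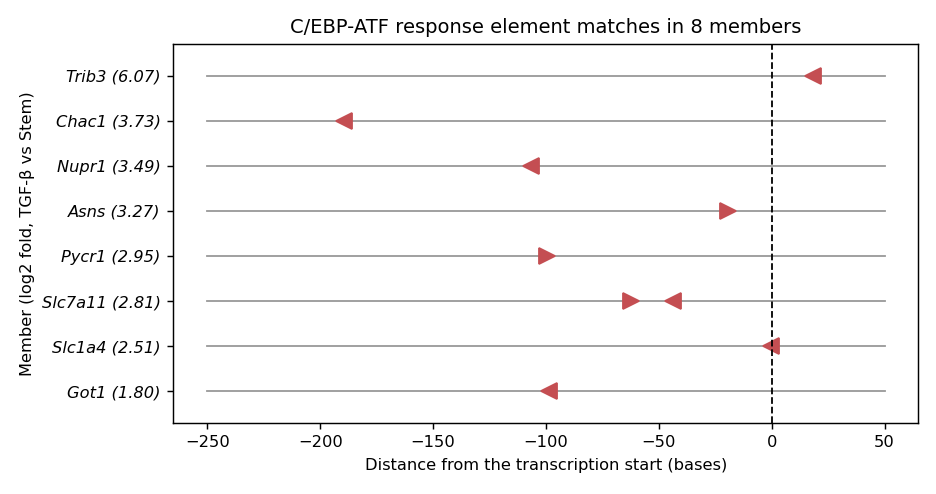
Position of each C/EBP-ATF response element match (triangle, pointing right where the element reads forward on the strand of the gene) along the promoter windows of 8 members, in bases from the transcription start (dashed line). Members are ordered by their log2 fold change in TGF-β versus Stem, given in parentheses from 1.80 for Got1 to 6.07 for Trib3.

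Total counts were between 35686291 and 47741128 per library, and the biological coefficient of variation between replicates was 6.13%. The values below are counts scaled to a common library size by edgeR's TMM method, called normalized counts, where 3 reads, taken as the limit of detection, correspond to between 2.63 and 3.26. The cell type markers followed the labels. The summed AdvSca1-SM progenitor markers Ly6a, Cd34, Pdgfra and Scara5 lay between 50475 and 58767 in Stem, 6361 and 6638 in TGF-β, and 6784 and 7423 in Both. Pdgfra held most of this sum, and its log2 fold change in Both versus TGF-β was 0.20 ± 0.06. The other markers had negative changes there, at -0.36 ± 0.12 for Ly6a, -0.62 ± 0.30 for Cd34 and -1.18 ± 0.31 for Scara5. Summed endothelial and leukocyte markers were low in every library, at 51.8 to 77.1 for 6 endothelial genes and 107.0 to 164.0 for 6 leukocyte genes, with Lyz2 holding most of the latter. Within the endothelial sum, Kdr was higher and Tek lower in TGF-β than in Stem. The 4 mature smooth muscle markers summed to 3278 to 4240 in Stem, 2960 to 3456 in TGF-β and 2784.5 to 2914 in Both. Smtn held most of that sum and hardly changed in TGF-β versus Stem (log2 fold change -0.06 ± 0.08). Myh11 (-1.58 ± 0.21) and Lmod1 (-0.69 ± 0.07) were lower in TGF-β, and Cnn1 overlapped between the groups (-0.18 ± 0.12). The 4 myofibroblast markers summed to 88764 to 100616 in Stem, 723135 to 773098 in TGF-β and 513427 to 544717 in Both. Col1a1 held most of this last sum, and Acta2, Tagln and Postn moved in the same directions as Col1a1. The labels' RNA protocol speaks of liver, but 6 hepatocyte genes summed to at most 2.63. Stem replicate 2 stood apart in that the unnamed gene ENSMUSG00000119584 took 4.7% of its counts, against 0.364% and 0.477% in the other Stem libraries and 0.978% to 2.32% in the treated ones. In bulk RNA, fewer cells of a type and less RNA per cell cannot be told apart.

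Most of the list was higher in the treated cells. Between TGF-β and Stem, 26 of the 36 tested members were called higher and 3 lower (edgeR's quasi-likelihood test, Benjamini-Hochberg adjusted p below 0.05 and at least 2-fold), where 10.6% of all tested genes were called higher and 14.5% lower. The called rises spanned every role, from the serine enzymes Phgdh and Psph to the transporters Slc7a5 and Slc7a11. The 3 that fell were Glul, Cbs and Slc38a2. Shmt1, Gpt2, Got2, Sesn2 and Slc1a5 passed the adjusted p in the upward direction but stayed under 2-fold, and Psat1 and Mthfd1 did not pass. The share of all tested genes that passed the adjusted p alone in this comparison is not given here. The median log2 fold change was 2.22 over the 36 members and -0.0027 over all genes tested. Scaling by total counts shifted the median of all genes by -0.12 and left the 26 and 3 calls as they were in number.

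Adding PFI-3 lowered part of this list by modest amounts. Between Both and TGF-β, 21 of the 36 members were lower and 2 higher at an adjusted p below 0.05 (the same test, without a fold minimum), where 5.38% of all tested genes were lower and 3.54% higher. The 21 falls ranged from 13.1% to 75.5% with a median of 24.0%. Only Slc7a3, a transporter of arginine and lysine, passed 2-fold, among 0.47% of all genes called lower and 0.161% called higher by that rule. The 2 rises were those of Glul and Slc38a2, which had fallen in TGF-β. Since TGF-β enters both comparisons, the values of each are given side by side below and are not independent of each other. The fitted changes were lost below the threshold for Slc1a4, Chac1, Gpt2 or Mthfd2 when single libraries were left out, as given with each gene, and the number of lower members lay between 17 and 21 over those 6 fits.

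**Figure D2:**
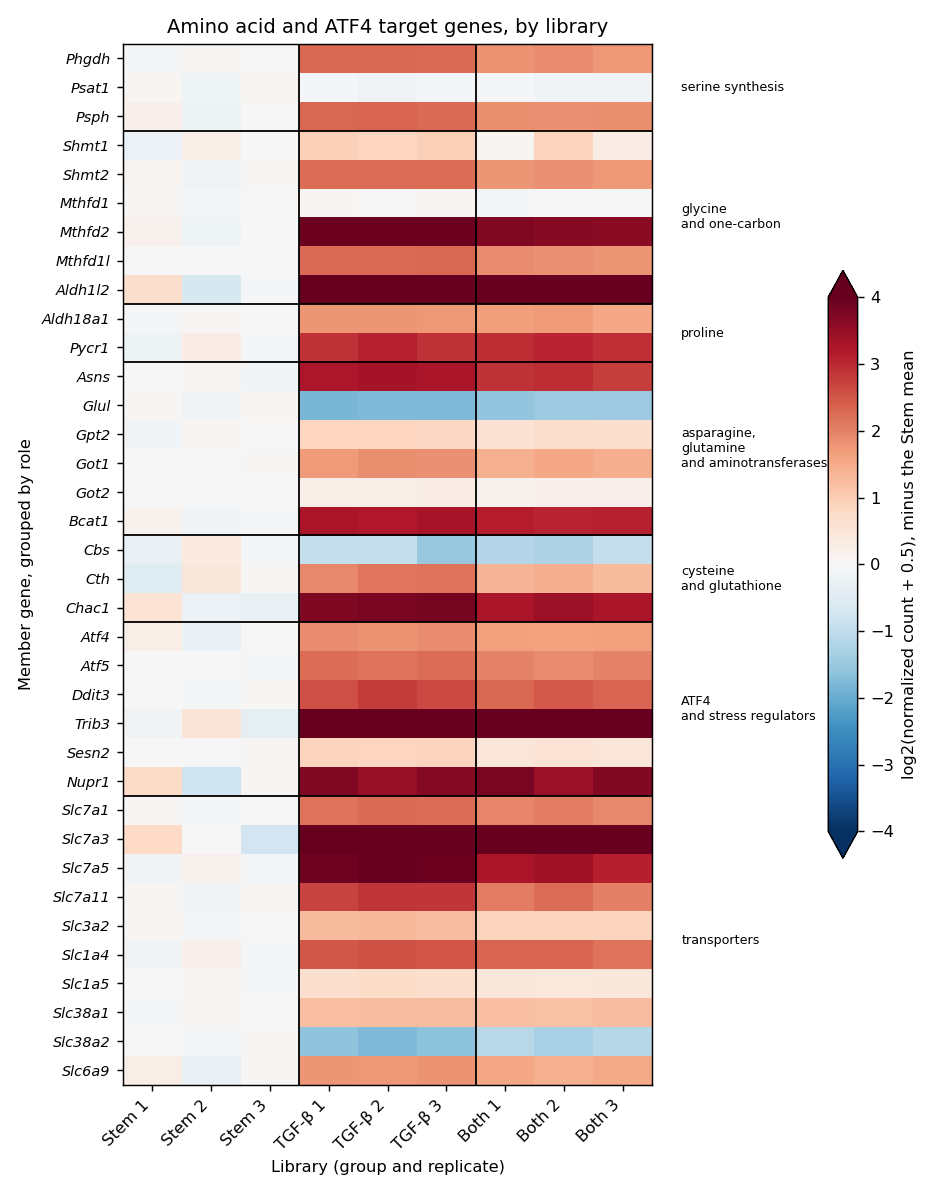
Heat map of the 36 tested members (rows, grouped by role) in the 9 libraries (columns), colored by log2(normalized count + 0.5) minus the mean of the 3 Stem libraries, with colors saturating at 4 in either direction. Most rows turn red in all TGF-β and Both libraries, whereas Glul, Cbs and Slc38a2 turn blue and Psat1 and Mthfd1 stay pale.

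Serine is made from the glycolytic intermediate 3-phosphoglycerate by Phgdh, Psat1 and Psph in turn, and the outer enzymes of this path rose while the middle one did not pass. Phgdh (ENSMUSG00000053398), which catalyzes the committed step, had 1598, 1764 and 1669 normalized counts in the 3 Stem libraries, 8149, 8307 and 8141 in TGF-β and 5844, 6163 and 5636 in Both. The groups did not overlap, and the log2 fold change (± SE) was 2.29 ± 0.05 for TGF-β versus Stem and -0.48 ± 0.04 for Both versus TGF-β (adjusted p = 1.48e-12 and 7.75e-05). Psph, the phosphatase of the last step, had 470.0, 350.0 and 402 in Stem, 1979, 2036 and 1943 in TGF-β and 1478, 1437 and 1458 in Both. It changed by 2.28 ± 0.08 and then by -0.45 ± 0.07 (adjusted p = 9.48e-11 and 0.00214). Psat1, the aminotransferase between them, lay at 4452, 3743 and 4516 in Stem, 4041, 3795 and 4099.6 in TGF-β and 4032, 3812 and 3798 in Both, so that all 3 groups overlapped (log2 fold change -0.09 ± 0.06, adjusted p = 0.218). That small difference passed the threshold without Stem replicate 2, at -0.17, and when libraries were scaled by total counts, at -0.21. Per kilobase of exon, the ratio of Phgdh to Psat1 counts was 0.614 to 0.806 in Stem, 3.4 to 3.75 in TGF-β and 2.48 to 2.77 in Both.

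In the folate-dependent one-carbon path, in which serine gives up a carbon and becomes glycine, 4 of 6 members were called higher in TGF-β, and the 4 encode mitochondrial enzymes. Mthfd2, a mitochondrial dehydrogenase and cyclohydrolase, rose from 393, 308 and 347 normalized counts across Stem to 5247, 5283 and 5314 in TGF-β and stood at 4558, 4336 and 4231 in Both. The log2 fold change was 3.92 ± 0.07 in the first comparison and -0.27 ± 0.06 with PFI-3 (adjusted p = 4.54e-13 and 0.0101), the latter missing the threshold without Both replicate 3 (-0.25, adjusted p = 0.0521). Shmt2, which splits serine inside mitochondria, had 911, 763 and 872 in Stem, 3978, 3989 and 3977 in TGF-β and 2905, 2994 and 2836 in Both. The TGF-β libraries were nearly level and stood above both other groups, with changes of 2.23 ± 0.06 and -0.45 ± 0.05 (adjusted p = 7.11e-12 and 2.87e-04). Mthfd1l, the mitochondrial formate-producing ligase, had 228, 225 and 223 in Stem, 1096, 1094 and 1116 in TGF-β and 834, 801 and 774 in Both. Its changes, 2.29 ± 0.06 and -0.46 ± 0.05, were close in size to those of Shmt2 (adjusted p = 4.77e-12 and 1.67e-04).

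Aldh1l2, a mitochondrial enzyme that oxidizes formyl folate and yields NADPH, did not pass the adjusted p with PFI-3. Whether its response differed from that of the other mitochondrial members was not tested. Aldh1l2 had 1243, 491 and 730.0 normalized counts in the Stem libraries, 13067, 12324 and 13502 in TGF-β and 13575, 11998 and 12418 in Both. The treated groups overlapped throughout (3.98 ± 0.23 for TGF-β versus Stem, adjusted p = 1.18e-08, and -0.03 ± 0.20 for Both versus TGF-β, adjusted p = 0.945). The Stem libraries were uneven for this gene, lowest in replicate 2 and highest in replicate 1, and leaving out one of these moved the first change to 3.72 or 4.41. The cytosolic counterparts moved less. Shmt1 had 33.5, 47.8 and 38.9 normalized counts in the Stem libraries, 76.6, 73.0 and 77.1 in TGF-β and 42.3, 74.0 and 49.2 in Both, a rise of 0.92 ± 0.21 that stayed under 2-fold (adjusted p = 0.00209) but reached 1.07 without Stem replicate 2. Its Both libraries were scattered, and the difference of -0.46 ± 0.20 (adjusted p = 0.182) passed the threshold only without Both replicate 2, at -0.72. Mthfd1, the cytosolic trifunctional enzyme, lay between 1997 and 2095 in Stem and between 2080 and 2167 in TGF-β (adjusted p = 0.166), and its difference of 0.07 ± 0.04 took the opposite sign when libraries were scaled by total counts. Within libraries, the per-kilobase ratio of Mthfd2 to Mthfd1 went from between 0.196 and 0.239 in Stem to between 3.08 and 3.24 in TGF-β and between 2.67 and 3.02 in Both.

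Proline, the residue that gives collagen its fold, is made from glutamate by a path that includes Aldh18a1 and Pycr1, and it was the only role in which no tested member passed the adjusted p with PFI-3. Aldh18a1 had 2138, 2348 and 2265 normalized counts in the Stem libraries, 7629, 7702 and 7409 in TGF-β and 7106, 7300.2 and 6550.2 in Both. It rose by 1.75 ± 0.05 (adjusted p = 1.86e-11) and differed by -0.12 ± 0.05 with PFI-3 (adjusted p = 0.154), although the ranges of TGF-β and Both did not overlap. Pycr1, the mitochondrial reductase of the last step, had 110.0, 156 and 120.0 in Stem, 955, 1082 and 949 in TGF-β and 997, 1055 and 977 in Both. The treated groups overlapped for this gene, which rose by 2.95 ± 0.10 (adjusted p = 1.20e-10) and differed by 0.02 ± 0.08 with PFI-3 (adjusted p = 0.92). Prodh, which starts proline breakdown, was the 1 member under the filter, with 2.16 to 14.1 normalized counts over all libraries, and was not tested.

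Asparagine and glutamine synthetase, which both add a nitrogen to an acidic amino acid, moved in opposite directions. Asns had 554, 573 and 507 normalized counts in the Stem libraries, 5089, 5434 and 5204 in TGF-β and 4010.2, 4201 and 3737 in Both. The 3 groups were apart, with changes of 3.27 ± 0.06 and -0.40 ± 0.05 (adjusted p = 6.72e-13 and 5.95e-04). Glul, the glutamine synthetase, had 3528, 3132 and 3611 in Stem, 965, 1007 and 1000.0 in TGF-β and 1156, 1259.5 and 1235 in Both. It fell by 1.79 ± 0.06 on the log2 scale and was 22.8% higher with PFI-3 than with TGF-β1 alone (adjusted p = 6.06e-11 and 0.00943). Per kilobase, Asns thus had 0.171 to 0.222 times the counts of Glul in Stem libraries, 6.32 to 6.56 times in TGF-β and 3.68 to 4.21 times in Both.

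Among the aminotransferases, which pass nitrogen between amino acids and keto acids, the 4 members rose to different degrees. Bcat1, which acts on the branched-chain amino acids in the cytosol, had 802, 677 and 709 normalized counts in the Stem libraries, 6960.2, 6757 and 7099 in TGF-β and 6473, 6034 and 6136 in Both. Its rise was 3.25 ± 0.06 (adjusted p = 6.72e-13), and its difference with PFI-3, -0.16 ± 0.05, missed the threshold (adjusted p = 0.0795) although the TGF-β and Both libraries did not overlap. Got1, the cytosolic aspartate aminotransferase, had 727, 724 and 766 in Stem, 2420.4, 2696 and 2613 in TGF-β and 1984, 2139.9 and 2041 in Both. It changed by 1.80 ± 0.05 and then by -0.33 ± 0.05 (adjusted p = 2.43e-11 and 0.00169). Gpt2, a mitochondrial alanine aminotransferase, had 1025, 1160.5 and 1109 in Stem, 1969, 1978 and 1954 in TGF-β and 1623, 1785 and 1720.3 in Both. That rise of 0.84 ± 0.05 stayed under 2-fold (adjusted p = 2.44e-08). The 13.1% fall of Gpt2 with PFI-3 (adjusted p = 0.0298) was lost in 5 of the 6 fits that left out a library, with Both replicate 2 the exception, and the adjusted p reached 0.142 without Both replicate 1 (-0.17). Got2, the mitochondrial aspartate enzyme, changed by only 0.26 ± 0.03 (adjusted p = 1.59e-05) and by -0.07 ± 0.03 with PFI-3 (adjusted p = 0.247).

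Of the transsulfuration enzymes, which carry sulfur from homocysteine to cysteine, the first fell and the second rose. Cbs, which joins homocysteine and serine, was scarce, with 53.4, 85.8 and 61.7 normalized counts in the Stem libraries, 33.5, 33.5 and 22.5 in TGF-β and 28.8, 27.6 and 33.4 in Both. It was lower in every treated library than in any Stem library and fell by 1.17 ± 0.23 on the log2 scale (adjusted p = 5.03e-04), but by less than 2-fold without Stem replicate 2 (-0.95) or TGF-β replicate 3 (-0.99). Cth, which releases cysteine, had 116, 222 and 166 in Stem, 619, 717 and 729 in TGF-β and 414, 449 and 390.0 in Both. Its groups did not overlap, and the fall of 39.4% with PFI-3 was the largest among the listed members that encode enzymes (changes of 2.04 ± 0.16 and -0.72 ± 0.14, adjusted p = 1.88e-07 and 0.00841). Chac1, which degrades glutathione in the cytosol and is a late ATF4 target, had 94.2, 54.3 and 51.9 in Stem, 860.0, 892 and 917 in TGF-β and 619, 697 and 624 in Both. It rose 13.2-fold (log2 3.73 ± 0.14, adjusted p = 2.61e-10) and fell by 27.4% with PFI-3 (adjusted p = 0.0189). That fall held its sign but missed the threshold in 5 of the 6 fits that left out a library, all but that without Both replicate 2, with an adjusted p of up to 0.0908.

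Of the 6 regulators of the program, 5 were called higher in TGF-β versus Stem, where 10.6% of all tested genes were, and Sesn2 rose by less than 2-fold. Atf4 mRNA had 2903, 2016 and 2459 normalized counts in the Stem libraries, 8959.8, 8499 and 9104 in TGF-β and 7630.5, 7413 and 7665 in Both. It rose by 1.85 ± 0.10 (adjusted p = 4.10e-09), and its difference with PFI-3 of -0.23 ± 0.09 missed the threshold (adjusted p = 0.155) although no Both library reached the lowest TGF-β library. Atf5, a related factor that is also set at translation, had 2929, 2914 and 2812 in Stem, 13569.7, 12973 and 13503 in TGF-β and 11489, 10759.8 and 11314 in Both. Its libraries agreed closely within groups, with changes of 2.21 ± 0.04 and -0.25 ± 0.04 (adjusted p = 7.39e-13 and 0.0018). Ddit3, which encodes the stress factor CHOP, had 379, 361 and 385 in Stem, 2228, 2610.4 and 2361 in TGF-β and 1860.1, 2050.1 and 1892 in Both. It changed by 2.68 ± 0.07 and -0.31 ± 0.06 (adjusted p = 8.12e-12 and 0.00738).

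Trib3, a pseudokinase that ATF4 and CHOP induce and that restrains ATF4 in turn, had the second largest rise of the list. It had 36.6, 57.6 and 31.4 normalized counts in the Stem libraries, 2551, 3114 and 2801 in TGF-β and 1659, 2126 and 1735 in Both, a rise of 67.3-fold (log2 6.07 ± 0.17, adjusted p = 1.28e-11). With PFI-3 it was 34.8% lower (adjusted p = 0.00331) and still far above every Stem library. Sesn2, a leucine sensor that restrains mTORC1, had 1150.5, 1148 and 1207 in Stem, 2154, 2131 and 2179 in TGF-β and 1630.5, 1704 and 1646 in Both. The rise of 0.88 ± 0.04 was under 2-fold (adjusted p = 1.32e-09), and PFI-3 lowered it by 23.0% (adjusted p = 1.73e-04). Nupr1, a small stress-induced nuclear protein, had 1819.5, 615 and 1115 in Stem, 14126, 12089 and 13714 in TGF-β and 15064, 11668 and 14153 in Both. Like Aldh1l2, it varied in Stem, with the lowest value in replicate 2 and the highest in replicate 1, and the treated groups overlapped. Its rise was 3.49 ± 0.28 (adjusted p = 1.95e-07), or 3.95 without Stem replicate 1 and 3.18 without Stem replicate 2, and its difference with PFI-3 was 0.03 ± 0.24 (adjusted p = 0.956).

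**Figure D3:**
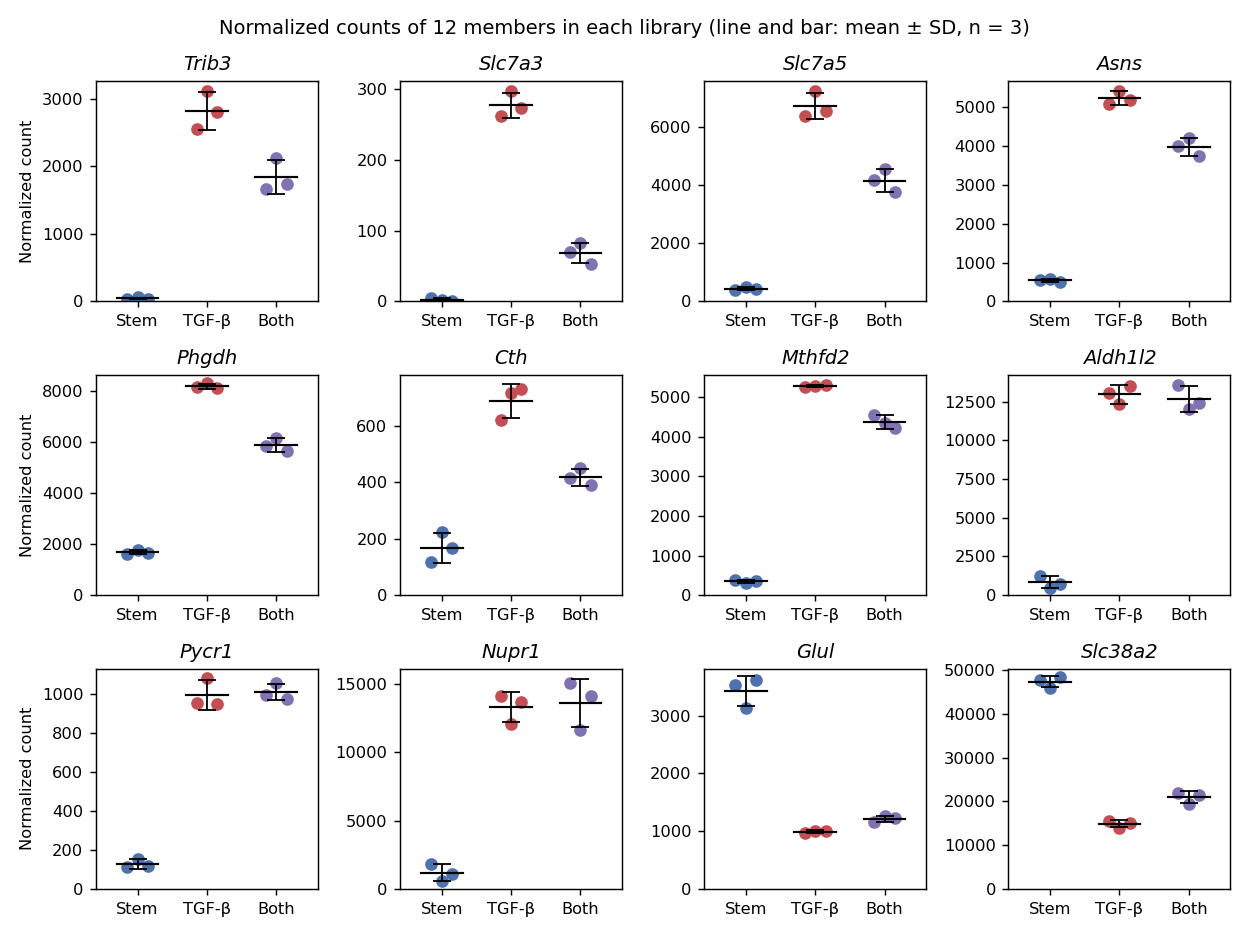
Normalized counts of 12 members in each of the 9 libraries (points) with the mean and SD of each group (n = 3), on linear axes that start at 0. Trib3, Slc7a3, Slc7a5, Asns, Phgdh, Cth and Mthfd2 were lower in every Both library than in any TGF-β library, whereas Aldh1l2, Pycr1 and Nupr1 overlapped between them, and Glul and Slc38a2 ran the other way.

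The transporters held the widest range of changes. Slc7a3, which carries arginine and lysine into cells, was almost silent in Stem, with 4.19, 2.17 and 1.08 normalized counts, or 7 reads over the 3 libraries. It had 262, 297 and 274 in TGF-β and 70.2, 81.9 and 52.7 in Both. Against those 7 reads the pooled TGF-β counts were 112.0-fold higher, with a 95% interval from counting of 54.4 to 279.0 that leaves out the spread between libraries, and the fitted log2 fold change of 6.73 ± 0.27 (adjusted p = 3.84e-10) became 7.31 without Stem replicate 1 and 6.39 without Stem replicate 3. With PFI-3 it was 75.5% lower (log2 -2.03 ± 0.15, adjusted p = 1.62e-05), and each of the 6 fits without a library kept that fall, between -2.18 and -1.87. Slc7a1, the more abundant carrier of the same amino acids, had 1431, 1320.2 and 1374 in Stem, 6192, 6611 and 6502 in TGF-β and 5294, 5686 and 5217 in Both. Slc7a1 changed by 2.23 ± 0.05 and -0.25 ± 0.05 (adjusted p = 2.12e-12 and 0.00489). Per kilobase, Slc7a3 stood at 0.129 to 0.137 of Slc7a1 in TGF-β and at 0.0308 to 0.0439 in Both, so Slc7a1 remained the higher of the pair in all 9 libraries.

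Slc3a2 encodes the heavy chain that pairs with several light chains, among them Slc7a5, which exchanges large neutral amino acids such as leucine (LAT1), and Slc7a11, which brings in cystine for glutamate (xCT). Slc7a5 had 397, 491 and 412 normalized counts in the Stem libraries, 6346, 7222 and 6543 in TGF-β and 4151, 4532 and 3748 in Both. Its rise was 15.5-fold and its fall with PFI-3 38.2% (log2 3.95 ± 0.09 and -0.69 ± 0.08, adjusted p = 3.87e-12 and 2.31e-04). Slc7a11 had 158, 142 and 163 in Stem, 1010.0, 1115 and 1132 in TGF-β and 632, 728 and 628 in Both. The rise was 2.81 ± 0.09 (adjusted p = 3.33e-11) and the fall with PFI-3 39.0% (adjusted p = 1.28e-04), close to that of Slc7a5. Slc3a2 itself moved less, with 2437, 2163 and 2320.5 in Stem, 5494, 5688 and 5445 in TGF-β and 4280.3, 4308 and 4261 in Both (changes of 1.26 ± 0.04 and -0.37 ± 0.04, adjusted p = 1.13e-10 and 3.12e-04). The per-kilobase ratio of Slc7a5 to Slc3a2 was 0.155 to 0.216 in Stem, 1.1 to 1.21 in TGF-β and 0.837 to 1.0 in Both.

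The carriers of small neutral amino acids did not move as 1 group. Slc1a4, which exchanges alanine, serine and cysteine, had 938, 1182 and 987 normalized counts in the Stem libraries, 5826, 5964 and 5957 in TGF-β and 5135, 5124 and 4599 in Both. It rose by 2.51 ± 0.08 (adjusted p = 2.69e-11), while its 16.3% fall with PFI-3 (adjusted p = 0.0378) missed the threshold in all 6 fits that left out a library, with changes of -0.28 to -0.21 and an adjusted p of 0.054 to 0.148. Slc1a5, the glutamine exchanger ASCT2, had 2418, 2519.8 and 2375 in Stem, 3821, 4052 and 3938 in TGF-β and 3370.0, 3236 and 3370.4 in Both. That was a rise of 0.69 ± 0.04, under 2-fold, and a fall of 15.5% (adjusted p = 9.81e-09 and 0.00251). Slc6a9, the glycine transporter GlyT1, had 1077, 737 and 931 in Stem, 3070.0, 3010.0 and 3160.4 in TGF-β and 2620.0, 2445 and 2612 in Both. It rose by 1.75 ± 0.10 (adjusted p = 7.83e-09) and differed by -0.27 ± 0.09 with PFI-3, short of the threshold (adjusted p = 0.0931).

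The sodium-coupled system A carriers Slc38a1 and Slc38a2 went opposite ways. Slc38a2, the member with the highest count per kilobase in Stem, had 47651, 45986 and 48414 normalized counts there, 15535, 14028 and 15033 in TGF-β and 21993, 19405 and 21348 in Both. It fell by 1.67 ± 0.05 on the log2 scale and was 40.7% higher with PFI-3 than with TGF-β1 alone (adjusted p = 5.88e-11 and 2.11e-04), the largest rise of a member in that comparison. Every Both library lay between the TGF-β and the Stem libraries. Slc38a1 had 2193, 2357 and 2314 in Stem, 5306, 5422 and 5362 in TGF-β and 5287, 5199 and 5326 in Both. It rose by 1.23 ± 0.04 (adjusted p = 3.16e-11), and the treated groups overlapped (-0.03 ± 0.04, adjusted p = 0.736).

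Read across roles, the 26 members called higher in TGF-β divided by their response to PFI-3 into 18 that were lower in Both at an adjusted p below 0.05 and 8 that did not pass, namely Aldh1l2, Pycr1, Aldh18a1, Bcat1, Nupr1, Atf4, Slc38a1 and Slc6a9. Over the 26, the change with PFI-3 ran from -2.03 to 0.03 with a median of -0.32. A p that misses the threshold does not show that a gene did not respond, and of the 8, Atf4, Bcat1 and Slc6a9 passed when only the 6 libraries compared were fitted, when no filter was applied or when replicate numbers were blocked. The other 3 falls were those of Gpt2, Sesn2 and Slc1a5. Relative to Stem, the Both group kept most of the rise. In Both versus Stem, 25 members were called higher and 3 lower at an adjusted p below 0.05 and at least 2-fold, where 9.55% of all genes were higher and 13.2% lower, and the median log2 fold change over the 36 was 1.79. Of the 26 risen members only Slc3a2 dropped below 2-fold against Stem, at 0.89.

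**Figure D4:**
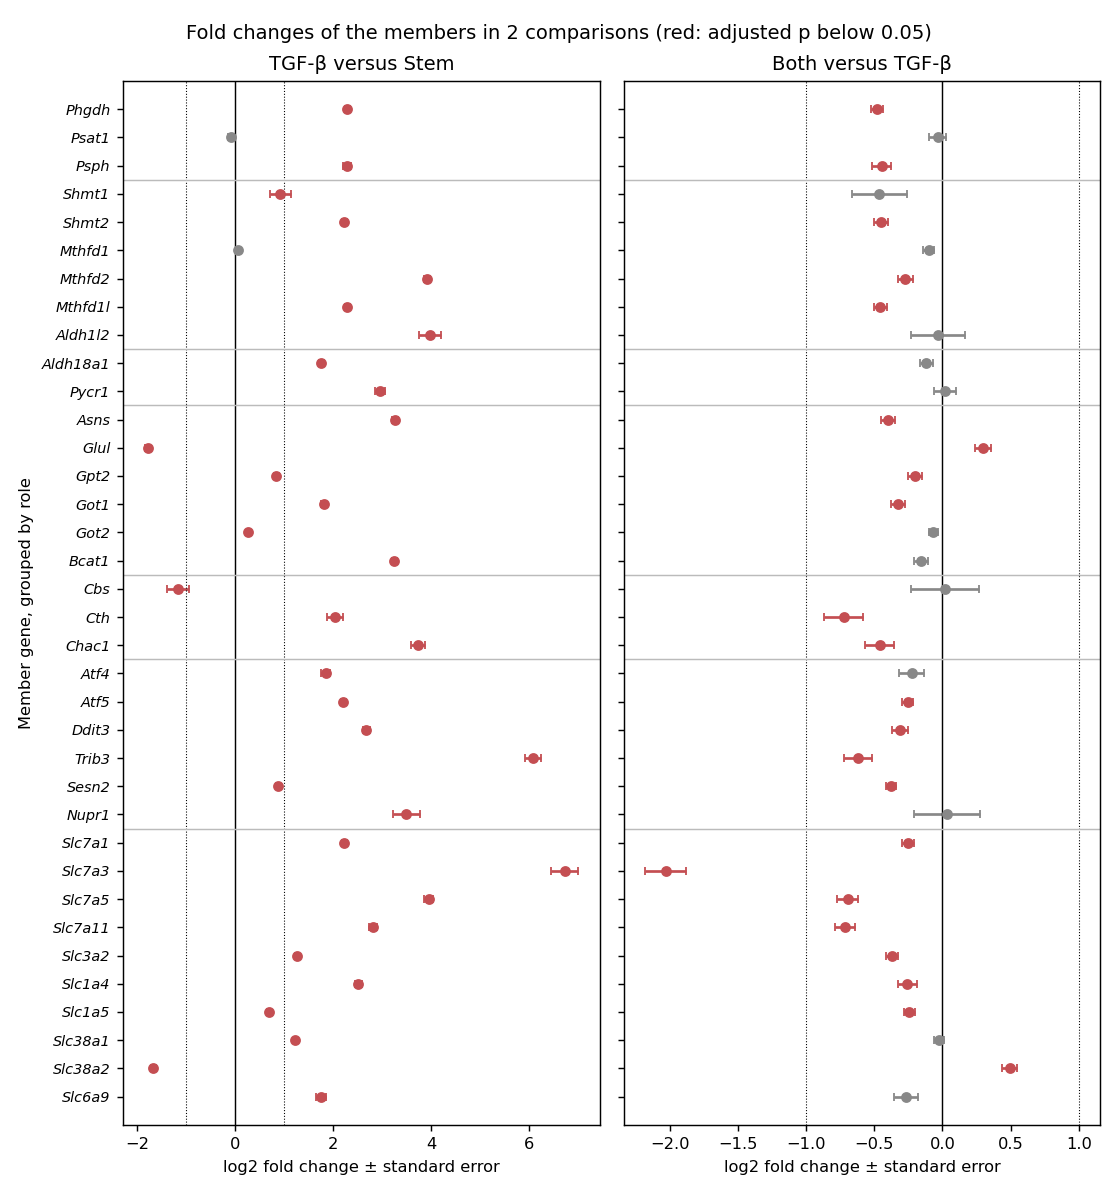
Log2 fold change with its standard error for each of the 36 tested members, TGF-β versus Stem on the left and Both versus TGF-β on the right, on axes of different width, with dotted lines at 2-fold and adjusted p below 0.05 in red. On the left 26 points lie beyond the right dotted line, while on the right only Slc7a3 lies beyond the left one.

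The order of the members changed with treatment. Per kilobase of exon, the 3 highest in Stem were Slc38a2 (5358 ± 140.0, SD, n = 3), Atf5 (1448 ± 32.1) and Atf4 (1043 ± 188.0), of which Atf4 and the next member, Glul (1030.3 ± 77.0), differed by less than their spread. In TGF-β the 3 highest were Atf5 (6698 ± 164.0), Nupr1 (5294 ± 429.0) and Atf4 (3755 ± 134.0), with Phgdh (3298 ± 37.7) next. In Both they were Atf5 (5613 ± 191.0), Nupr1 (5421 ± 699.0) and Atf4 (3210.1 ± 58.1), and the first 2 of these overlapped in spread. Prodh, Cbs and Shmt1 stayed among the lowest in all groups, whereas Slc7a3, the lowest in Stem at 0.656 ± 0.418, stood at 73.4 ± 4.68 in TGF-β and 18.0 ± 3.88 in Both.

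Other genes of the same pathways were examined through 9 lists with 135 genes, of which 128 were tested. The aminoacyl-tRNA synthetases, which charge tRNAs with amino acids and include known ATF4 targets, had called shares nearest to those of the members. In TGF-β versus Stem, 11 of 20 cytosolic synthetases were called higher and all 20 had a positive change, with a median log2 fold change of 1.07 and with Cars1 (2.05 ± 0.06), Aars1 (1.88 ± 0.06) and Gars1 (1.79 ± 0.04) leading. In Both versus TGF-β, 12 of the 20 were lower at an adjusted p below 0.05 and 18 had a negative change, among them Nars1 (-0.32 ± 0.04), Aars1 (-0.31 ± 0.06) and Wars1 (-0.30 ± 0.05). These changes were small and their median was -0.19. Over all tested genes, 10.6% were called higher in TGF-β versus Stem, and 5.38% were lower in Both versus TGF-β at an adjusted p below 0.05.

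The upstream kinases, the phosphatase and further factors of the eIF2α branch had 6 of 17 genes called higher in TGF-β versus Stem, led by Fgf21, Atf3 and Gdf15, with Eif4ebp1, Ddit4 and Vldlr the others. Over all tested genes, 10.6% were called higher in that comparison, and with PFI-3 5.38% were lower and 3.54% higher. Fgf21, a secreted hormone of the stress response, had 0 reads in all Stem libraries, and by the limit of 3 reads per library its TGF-β level was at least 17.7-fold higher. Atf3, a stress-induced repressor, was 3.27 ± 0.20 higher on the log2 scale and Gdf15, a secreted stress cytokine, 2.61 ± 0.12. With PFI-3, 3 of the 17 were lower, Gdf15 (-0.81 ± 0.10), Stc2 (-0.51 ± 0.11) and Jdp2 (-0.25 ± 0.06), and 1 was higher, the kinase gene Eif2ak3 (0.19 ± 0.04). The call of Stc2 was lost in 3 and that of Jdp2 in 4 of the 6 fits that left out a library, with values of -0.46 to -0.43 and -0.26 to -0.22 in those fits. The unfolded protein response of the endoplasmic reticulum, which shares the eIF2α branch, had 1 of 12 genes called in TGF-β versus Stem. The gene was Herpud1, which rose by 1.38 ± 0.04, and the share of 8.33% was near that of all tested genes. With PFI-3 the list had 3 of 12 higher, Dnajc3 (0.20 ± 0.04), Creld2 (0.18 ± 0.05) and Edem1 (0.18 ± 0.05), and the calls of Creld2 and Edem1 were lost in all 6 fits that left out a library (0.16 to 0.21 and 0.15 to 0.20).

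Lists nearer to metabolism were mixed, and over all tested genes 10.6% were called higher and 14.5% lower in TGF-β versus Stem. Among 9 further proline, ornithine and arginine genes, 2 were called higher and 1 lower in TGF-β versus Stem. The arginine-making enzyme Ass1 rose by 2.76 ± 0.09 and changed by -0.88 ± 0.08 with PFI-3, the spermidine synthase Srm rose by 1.14 ± 0.04, and Oat, which links ornithine to proline, fell by 1.15 ± 0.04. Of 16 folate, glycine and methionine genes, 2 were called higher and 2 lower, or 12.5% each way, near the shares over all tested genes. Thymidylate synthase, Tyms, rose by 1.09 ± 0.05, and of the glycine cleavage system the decarboxylase Gldc changed by -3.45 ± 0.18, and the aminomethyltransferase Amt by -1.19 ± 0.33, while the carrier Gcsh was 2.18-fold higher. Amt was under 2-fold without Stem replicate 2 (-0.97) and without TGF-β replicate 2 (-0.98). Of 9 other glutamine, glutamate and aminotransferase genes, 1 was higher, the glutaminase Gls2 at 1.57 ± 0.29, and 1 lower, Gpt at -1.33 ± 0.21. That was 11.1% each way, also near the shares over all tested genes. With PFI-3, other genes of these 3 lists that passed the adjusted p included Oat (0.16 ± 0.04), Mtrr (-0.28 ± 0.07), Slc25a32 (0.19 ± 0.04) and Gfpt1 (0.17 ± 0.04), none of which kept its call in every fit that left out a library.

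The 22 other amino acid transporters tested had 1 gene called higher and 5 lower in TGF-β versus Stem. These were 4.55% and 22.7%, where 10.6% and 14.5% of all tested genes were called. Among the 10 listed carriers, 8 were higher and 1 lower. Both lists were chosen with earlier results of these data known, so their difference can follow from the choice, and it was not tested. Slc7a7, the light chain of another Slc3a2 pair, rose by 2.77 ± 0.07, and Slc38a4, another system A carrier, changed by -3.55 ± 0.15. The other 4 called lower were Slc1a2, Slc1a3, Slc7a8 and Slc43a1, the last 3 of which are named because of the small count. With PFI-3, Slc6a17 was 1.16 ± 0.18 higher, and Slc7a2, a carrier of arginine and lysine like Slc7a3, changed by -0.50 ± 0.08. Of 11 genes of amino acid sensing upstream of mTORC1, 2 were called, both lower (18.2%, near the 14.5% over all tested genes). They were Castor2 (-1.16 ± 0.04) and the sestrin Sesn1 (-1.04 ± 0.06), whereas the listed sestrin Sesn2 rose. Cell cycle genes, which rise in dividing cells, had 3 of 12 called higher in TGF-β versus Stem, Rrm2 (1.79 ± 0.08), Ccna2 (1.23 ± 0.19) and Plk1 (1.17 ± 0.15), and 1 lower with PFI-3, Plk1 at -0.53 ± 0.14. That fall missed the threshold with DESeq2 (-0.54) and in 4 of the 6 fits that left out a library, down to -0.46. Their part in the members' changes was not tested.

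**Figure D5:**
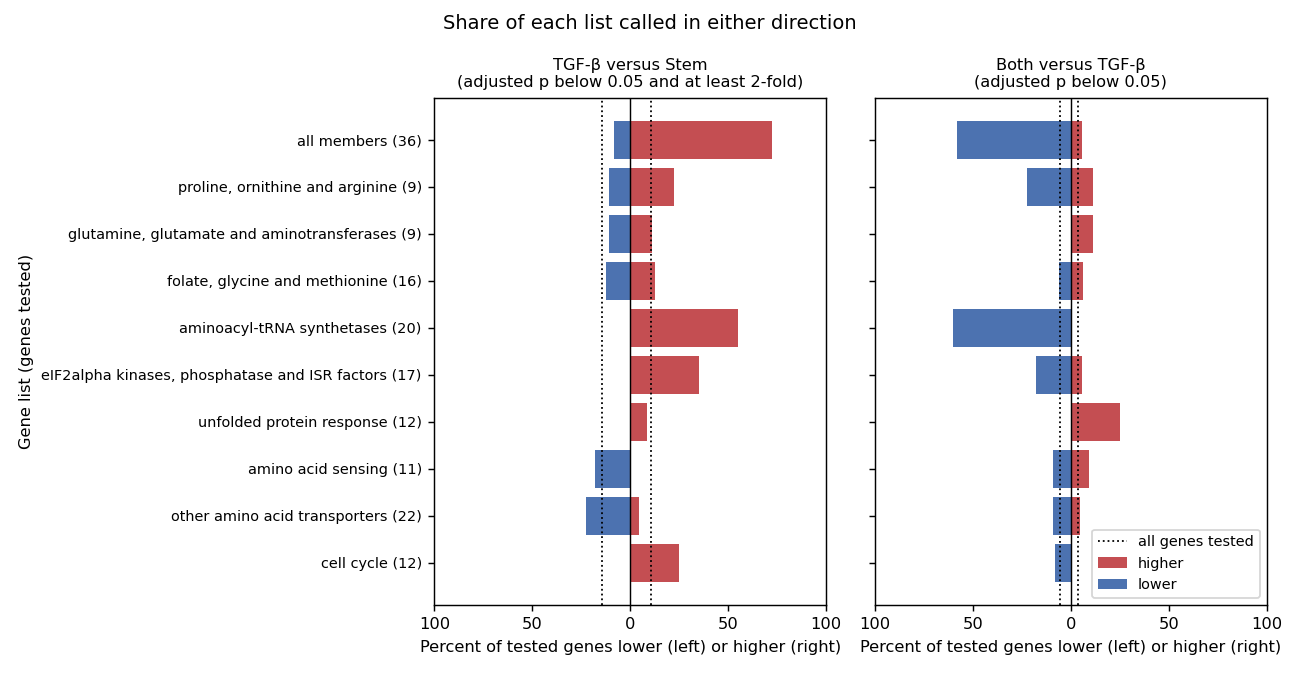
Share of tested genes called higher (red, to the right) or lower (blue, to the left) in the members and in 9 lists of other pathway genes, for TGF-β versus Stem by adjusted p and 2-fold and for Both versus TGF-β by adjusted p alone, with dotted lines at the share over all genes tested. The members (72.2%) and the tRNA synthetases (55.0%) have the longest red bars on the left and the longest blue bars (58.3% and 60.0%) on the right.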

How the data were processed

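RNA-Seq had been carried out on 9 libraries of AdvSca1-SM cells, 3 per group, from ribosomal RNA–depleted, paired-end libraries. The deposited table holds whole-number counts of reads for each Ensembl gene, which the authors had not normalized. The paper describes trimming with Flexbar and alignment with STAR to GRCm39, whereas the submitters' processing notes list HISAT2 2.2.1, SAMtools 1.13 and HTSeq 0.11.3. Which of these made the counts, whether strand was used and how multi-mapping reads were handled are not given in the sources used here, so genes with near-identical copies or antisense partners are uncertain. Symbols were assigned from a table of Ensembl identifiers to 52083 of 55416 genes, holding 98.1% of the counts, and of 2 identifiers named Ddit3 the one with reads was used.

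The members were tested with edgeR 4.0.16 under R 4.3.3 (filterByExpr, TMM, quasi-likelihood test, prior count of 0.125, Benjamini-Hochberg adjustment over 14879 genes) in a single model over all 9 libraries that held the group alone. The standard error is the size of the log2 fold change divided by the square root of the F statistic. Called genes had an adjusted p below 0.05 with at least 2-fold change, or below 0.05 alone for Both versus TGF-β. Normalized counts were scaled to the mean library of 41184338. Across genes, replicates correlated at a Spearman rho of 0.995 or more. The paper calls the replicates independent, but the labels name no separate cultures or animals, so p-values cover the spread between these libraries. With 3 libraries per group, an exact permutation test could not go below p = 0.1 and was not used. In a test on simulated counts for Both versus TGF-β with 200 changed genes, edgeR recovered 199 and 5.69% of its calls were false, against 198 and 8.33% for DESeq2. The planted changes were all at least 2-fold and lay in genes that were not scarce. Each simulated gene took its spread from the trend with count level alone. Genes with more scatter, such as Nupr1 and Aldh1l2, were therefore not represented, and the false shares are those of the simulation. All lower members except Slc7a3 changed by less than that, so the test does not show how well such smaller changes are recovered. Lengths for values per kilobase are the union of exons in a GRCm38 annotation, and no coordinates were carried between builds. Ratios between pairs of genes were chosen after values were seen.

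The members, the pathway and marker lists, the tests and the alternatives were chosen with earlier results of these data known. Values in every library are given for members called in TGF-β versus Stem or in Both versus TGF-β, and the other lists by at most 3 genes per comparison with the largest change, apart from small counts, whose genes were named after their values were seen. The alternatives were DESeq2 1.42.0, its size factors or total counts as scaling, the filter dropped or set at a mean of 10 counts, a fit to the 6 libraries of a comparison, blocking by replicate number, prior counts raised to 2, edgeR's TREAT test, the fold minimum dropped or added, and leaving out each library. The CUT&RUN, qPCR and animal data were not analysed here. One gene of the other pathway lists is not reported here.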

Additional observations from a re-analysis of the deposited data

How the results depend on the processing

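The numbers of members called in TGF-β versus Stem and in Both versus Stem stayed within 1.5 times their reported values under every alternative run, with 26 to 31 higher and 2 or 3 lower in TGF-β versus Stem. In Both versus TGF-β, the count of 21 lower members was 22 with DESeq2, 24 without a filter or with the 6 libraries compared, and 17 to 21 when single libraries were left out. It fell to 1 lower and 0 higher under edgeR's TREAT test against 2-fold and, equally, when a 2-fold minimum was added, since Slc7a3 alone changed that much. The median change of the members in TGF-β versus Stem was 2.10 with total counts and 2.197 to 2.241 when libraries were left out. The direction of 5 members that did not pass the threshold reversed. In TGF-β versus Stem this was Mthfd1 with total counts (-0.0544). In Both versus TGF-β it was, over the fits without a library, Aldh1l2 (-0.0871 to 0.0016), Cbs (-0.1581 to 0.1103), Nupr1 (-0.0443 to 0.1324) and Pycr1 (-0.0148 to 0.0831).

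Replicate numbers are shared between groups. Deviations of same-numbered libraries from their group means had correlations of -0.0539 to 0.196 over 9 pairs, of which 4 exceeded 0.1. The replicate 2 libraries gave the highest, at 0.139 to 0.196, while differently numbered pairs reached 0.167. Replicate 2 was lowest in every group for members such as Nupr1, Aldh1l2, Atf4, Bcat1, Slc38a2 and Slc6a9. It was highest in every group for others, such as Phgdh, Asns, Slc7a5, Trib3, Pycr1 and Aldh18a1. For Shmt2 and Ddit3, among others, its place differed between groups. The main fit held the group alone, so a part shared by number stayed in its spread. With a replicate block, 26 members were higher and 3 lower in TGF-β versus Stem, 24 lower and 2 higher in Both versus TGF-β, and 25 higher and 3 lower in Both versus Stem. The members gained were Atf4 (-0.23), Bcat1 (-0.16) and Slc6a9 (-0.27). Depth limited mainly Prodh, Slc7a3 in Stem, Cbs and Shmt1, which had the fewest reads.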
